A study of Mus musculus with 4 samples.

Results

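Smooth muscle-like cells were a minor part of the RFP-positive cells sorted from the left ventricle of mouse hearts, a sort aimed at endothelial cells (ECs). They were chosen by their counts of unique molecular identifiers (UMIs, each standing for 1 captured transcript): a cell needed at least 4 UMIs of Acta2, Tagln and Myh11 together and at most 1 UMI of the fibroblast genes Dcn, Lum and Pdgfra. Cells also needed over 200 genes, under 20% mitochondrial UMIs and under 1% hemoglobin UMIs. The rule was met by 656 of 39829 kept cells (1.65%), out of 41843 barcodes in all. The limits on genes and mitochondrial UMIs had removed 1689 barcodes and the hemoglobin limit 325, and the limit on fibroblast genes cost 6 cells.

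The 4 libraries were made with the 10x Genomics 3′ assay, 2 from mice on Chow diet (NC) and 2 from mice given HFD plus L-NAME (HFpEF), a model of heart failure with preserved ejection fraction that joins a high-fat diet to an inhibitor of nitric oxide synthesis. Per the study's methods, lineage tracing mice carried Cdh5-CreER, a tamoxifen-inducible Cre driven by an endothelial promoter, the R26-stop-tdTomato reporter and a floxed Scarb1 gene. The floxed line was made from C57BL/6N mice. With this Cre and reporter, RFP should mark ECs and their descendants. In hearts of such mice with HFpEF, the study saw no overlap of RFP with the protein of Acta2 by staining. It also detected no RFP-positive cells without the endothelial protein CD31 by flow cytometry. The labels name every library as endothelial cell and give no Scarb1 genotype, age or number of mice. The study's text names 4 groups of such mice, S fl/+/R ΔEC and S fl/fl/R ΔEC on each diet, so the 2 libraries of a diet may be of different genotype and not replicates of one another, and genotype then adds to the spread within a diet. Values in rows of 4 always stand for NC library 1, NC library 2, HFpEF library 1 and HFpEF library 2. Scarb1, which encodes scavenger receptor SR-B1, was at 56.8, 24.7, 71.5 and 37.8 CPM (the UMIs of a gene for each 1000000 UMIs of the summed cells) in smooth muscle-like cells and at 110.1, 45.6, 110.0 and 51.2 CPM in ECs, lower in library 2 of each diet. These 3′ UMIs lie outside the floxed part, so they do not show the deletion itself. In capillary ECs the study reported lower Scarb1 in S fl/fl/R ΔEC than in S fl/+/R ΔEC mice on each diet. It read this as a successful knockout. The labels do not tie a library to a genotype, and none was assigned here. The reporter was not among the 31253 genes counted (0 reporter genes), so the counts do not show whether a given cell carried RFP.

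Vascular smooth muscle cells wrap arteries and arterioles and set vessel calibre by contracting through actin, smooth muscle myosin and the kinase of its light chain. Serum response factor with its partner myocardin switches on many of their contractile genes at a short DNA element called the CArG box. Pericytes, the mural cells of capillaries, share many receptors with them, hold little of the contractile apparatus and carry an ATP-sensitive potassium channel built of Kcnj8 and Abcc9.

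Promoters of 4 genes are shown because a CArG box can be read in them and because these genes were high in smooth muscle-like cells. Each is the 250 bases before a RefSeq start on build GRCm38.p6, written 5′ to 3′ on the strand of the gene, with CArG boxes in capitals. Acta2 (smooth muscle alpha-actin, chr19:34255374-34255623, minus strand) held 2 boxes with a G or C among the 6 central letters and no exact one. Myl9 (the regulatory light chain of smooth muscle myosin, chr2:156775214-156775463, plus strand) held 1 exact box and 1 of that variant. Asb2 (a subunit of a ubiquitin ligase of muscle, chr12:103356002-103356251, minus strand) and Fbxl22 (an F-box protein of muscle, chr9:66514594-66514843, minus strand) held 1 exact box each.
Acta2: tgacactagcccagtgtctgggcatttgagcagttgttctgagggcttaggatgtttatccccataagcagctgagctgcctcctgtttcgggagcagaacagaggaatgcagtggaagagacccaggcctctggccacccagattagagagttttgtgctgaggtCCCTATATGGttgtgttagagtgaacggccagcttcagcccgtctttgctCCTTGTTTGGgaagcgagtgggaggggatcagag
Myl9: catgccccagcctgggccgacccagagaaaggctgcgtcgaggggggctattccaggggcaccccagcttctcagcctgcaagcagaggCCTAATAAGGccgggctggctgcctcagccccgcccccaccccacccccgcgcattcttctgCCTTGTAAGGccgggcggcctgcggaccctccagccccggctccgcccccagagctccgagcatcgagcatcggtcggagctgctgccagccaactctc
Asb2: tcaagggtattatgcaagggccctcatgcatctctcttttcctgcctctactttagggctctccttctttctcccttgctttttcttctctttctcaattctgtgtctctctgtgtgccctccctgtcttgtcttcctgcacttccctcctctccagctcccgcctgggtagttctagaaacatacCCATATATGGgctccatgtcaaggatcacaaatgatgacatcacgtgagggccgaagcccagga
Fbxl22: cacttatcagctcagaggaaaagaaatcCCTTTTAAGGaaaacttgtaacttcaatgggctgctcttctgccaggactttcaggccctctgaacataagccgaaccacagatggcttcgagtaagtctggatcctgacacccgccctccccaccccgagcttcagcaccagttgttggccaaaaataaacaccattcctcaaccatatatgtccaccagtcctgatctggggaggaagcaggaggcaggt

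Of all 32851 promoters in the RefSeq table, 1.47% held an exact CArG box and 8.59% an exact box or the variant, searched on both strands. Of the 37 listed contractile genes, 31 matched the table with 38 promoters, of which 4 (10.5%; Myl9, Myl6, Vcl and Filip1l) held an exact box and 10 (26.3%) either form. Of the 141 genes past 2-fold higher than in pericyte-like cells, 101 matched with 137 promoters, and 5 (3.65%) held an exact box. Of the 82 genes past 2-fold lower, 58 matched, with an exact box in 1 of 81 promoters (1.23%). Tagln, Myh11 and Myocd were not matched. A match describes the letters, and binding was not measured.

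The smooth muscle-like cells numbered 115, 163, 93 and 285, with 845237, 1215885, 293784 and 1136415 UMIs in their sums. A median cell held 6851, 7480, 2764 and 3078 UMIs, so cells of the HFpEF libraries were shallower. A rule on UMIs per cell may take in shallower cells less easily. Between 1 pair of libraries or another, 166 cell barcodes were shared. No doublet caller was run here. The study's flow cytometry methods describe gating out doublets at the sorter.

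The cells were 1.62% of kept cells in NC library 1 (95% Clopper-Pearson interval 1.34% to 1.94%), 2.44% in NC library 2 (2.08% to 2.84%), 1.71% in HFpEF library 1 (1.38% to 2.09%) and 1.38% in HFpEF library 2 (1.23% to 1.55%). The diets overlapped, with 2.03% ± 0.581 (SD, n = 2) in NC and 1.55% ± 0.23 (SD, n = 2) in HFpEF. With each cell thinned to 1000 UMIs, which left out 426, 352, 963 and 5133 shallower cells, the shares were 0.778%, 1.52%, 1.18% and 1.31%. The mean difference between the diets thereby turned from -0.48 to 0.102 percentage points. No test of the shares was made, and a permutation test of 2 libraries against 2 could not give a p below 0.333. The intervals cover counting error only, and the sort and the depth can set such a share.

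**Figure D1:**
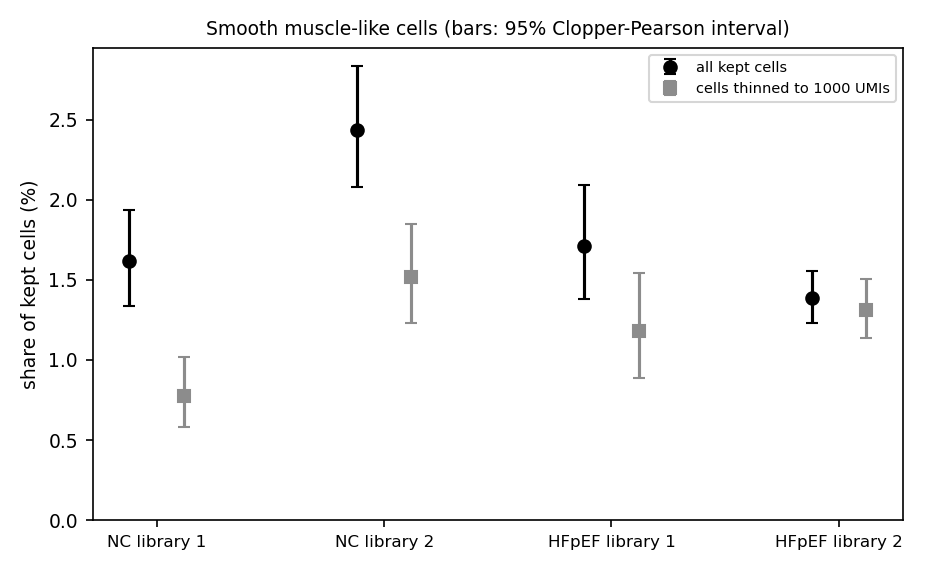
Share of smooth muscle-like cells among kept cells (y axis, percent) in each library, for all kept cells and after thinning each cell to 1000 UMIs, with 95% Clopper-Pearson intervals. NC library 2 was highest in both forms, at 2.44% and 1.52%, and the diets overlapped.

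The sum of Acta2, Tagln and Myh11 had a median of 24, 30, 13 and 21 UMIs per cell and reached 320, 284, 125 and 225. Just inside the limit lay 48 cells with a sum of 4 and 37 with a sum of 5, and just outside it 52 with a sum of 3 and 115 with a sum of 2. The limit therefore cut through a continuous range. All 3 genes were detected in 80%, 78.5%, 75.3% and 77.5% of the cells. An Acta2 UMI was seen in 94.8%, 93.9%, 90.3% and 94% of smooth muscle-like cells and in 0.468%, 0.638%, 0.207% and 0.336% of ECs, whose median depth was 3897, 4223, 1915 and 2002 UMIs. Of 47 B cells (none in NC library 1), 0 had a UMI of any of the 3 genes, which allows a share of up to 6.38%, taken as 3 cells of the total. They were shallower, with a median of 2052, 1443 and 1297 UMIs in the other libraries.

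Acta2 was at 3252, 2876, 2655 and 3112 CPM in smooth muscle-like cells, Tagln, an actin-binding protein, at 2339, 2649.9, 2689 and 3313 CPM, and Myh11, the smooth muscle myosin heavy chain, at 1022, 1327, 1008 and 1053 CPM. In pericyte-like cells Acta2 was at 17.4, 10.6, 18.2 and 18.2 CPM. These genes chose the cells, so their levels only describe the choice. The 569 pericyte-like cells (91, 149, 117 and 212) were those with at least 3 UMIs of Kcnj8, Abcc9, Vtn and Pdgfrb together and at most 2 of Acta2, Tagln and Myh11. The cells of both kinds were thus picked on expression, and the contrast between them is described without a test. A gene was counted when its log2 ratio of CPM, with 1 CPM added to both sides, was past 2-fold the same way in every library, among 6842 genes outside the marker sums with a mean of at least 20 CPM in either kind of cell.

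Muscle markers outside the rule were high as well. Myl9 was at 1343, 1326, 1099 and 1424 CPM, against 212, 108, 131 and 149.8 CPM in pericyte-like cells and a mean of 2.75 CPM in ECs, a ratio of means of 8.64 between the mural cells. Lmod1, which nucleates actin filaments, was at 222, 248, 279 and 259.6 CPM against 15.4, 31.8, 21.3 and 22.4 CPM. For both genes, as for Tpm2 and Mylk below, the lowest smooth muscle-like library lay above the highest pericyte-like one. Tpm2, a tropomyosin, had a mean of 1236 ± 291 CPM (SD, n = 4 libraries) against 267 ± 43.7 CPM, and Mylk, the myosin light chain kinase, 643 ± 37.1 against 169 ± 17.9 CPM. Des, a muscle intermediate filament, was 2.29 times as high in the ratio of means. Smtn did not separate the cells, at 89 ± 14.1 against 90.6 ± 27.2 CPM and 85.3 CPM in ECs. Cnn1 was sparse, with 40 UMIs over all smooth muscle-like cells and 0 in pericyte-like cells, and at least 9.56-fold higher against a floor of 3 UMIs over the whole group.

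**Figure D2:**
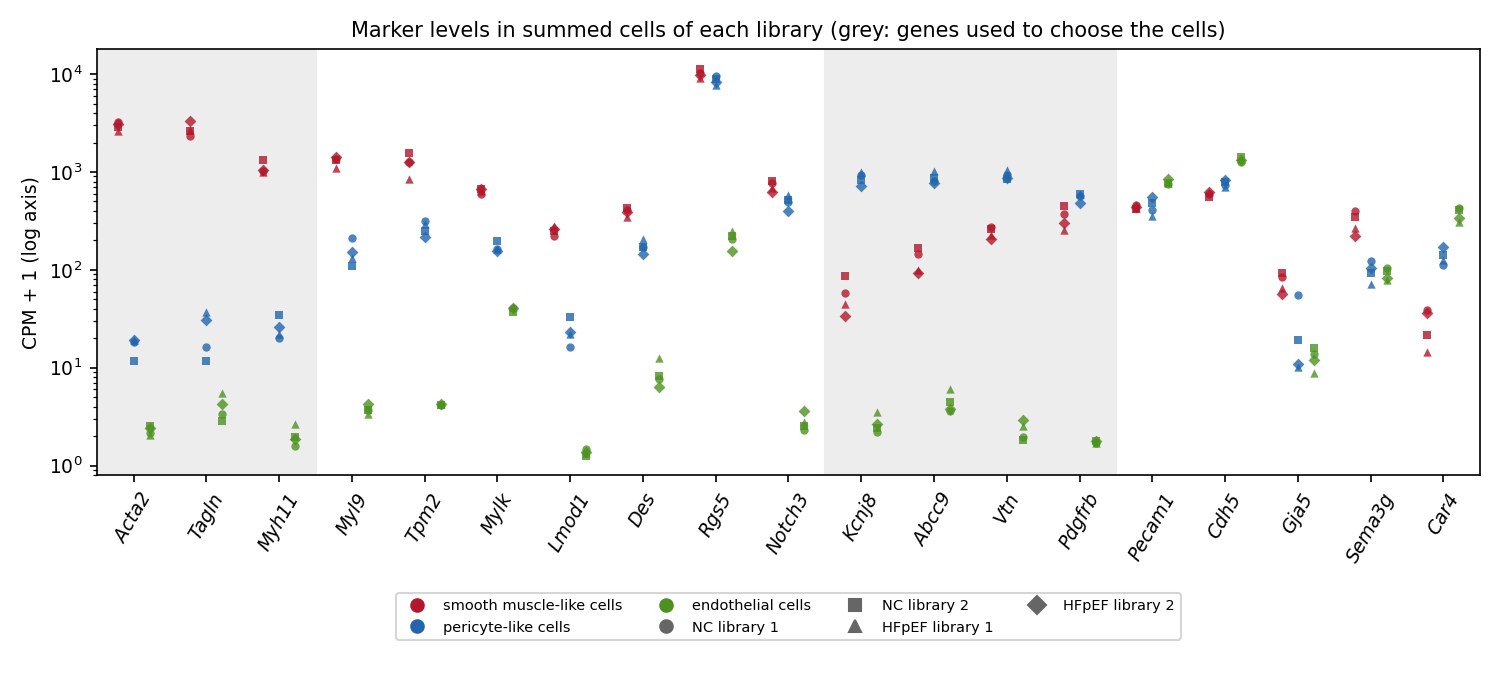
Levels (CPM + 1, log axis) of marker genes in the sums of smooth muscle-like, pericyte-like and endothelial cells, with 1 symbol per library. Grey marks the genes that chose the cells, and Myl9, Tpm2, Mylk and Lmod1 were higher in smooth muscle-like than in pericyte-like cells in 4 of 4 libraries.

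Of all genes considered, 141 of 6842 (2.06%) were past 2-fold higher in smooth muscle-like cells in every library and 82 (1.2%) past 2-fold lower. Of the contractile genes, 19 of 32 were past 2-fold higher and 0 lower, with a median log2 ratio of 1.58 against -0.02 over all genes. The most abundant, the LIM-domain protein Crip1, was at 3831, 4167, 3217 and 3537 CPM and was also high in pericyte-like cells (1352 CPM) and ECs (942 CPM). Mustn1, a small nuclear protein of muscle, was at 571 ± 86.7 against 51.5 ± 16.6 CPM, Flna (filamin A) at 539 ± 57 against 130.1 ± 25 CPM and Tpm1 at 1094 ± 62.4 against 284 ± 19.2 CPM. Cald1, caldesmon, was high in both, at 1524 and 865 CPM.

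The genes with the largest mean ratios were mostly near 0 in pericyte-like cells. Rbm24, an RNA-binding splicing regulator of muscle, was at 41.4, 75.7, 78.3 and 57.2 CPM (215 UMIs) with 0 UMIs in pericyte-like cells, at least 51.4-fold higher. Ramp1, part of the receptor for the vasodilator CGRP, was at 39, 39.5, 27.2 and 44 CPM and at least 33.2-fold higher. Among the 12 genes with the highest mean ratio, the third without a UMI in pericyte-like cells was Xirp1. It encodes an actin-binding protein of striated muscle and was at least 25.1-fold higher. Without NC library 2, which held many of the UMIs, the bounds were 28.1-fold for Rbm24, 20.8-fold for Ramp1, 13-fold for Xirp1 and 4.34-fold for Cnn1. Asb2, whose promoter is printed above, was at 58, 83.1, 51.1 and 43.1 CPM with 1 UMI in all pericyte-like cells. Tesc, a calcium-binding protein, was at 127, 169, 112 and 115 against 0, 9.55, 0 and 2.8 CPM. Palld, an actin-bundling protein, had a mean log2 ratio of 5.23 ± 1.00 (SD, n = 4), Map3k7cl of 5.44 ± 1.48 and Nrip2 of 5.04 ± 1.48. The olfactory receptor gene Olfr78 was at 29.6, 58.4, 57.9 and 63.4 CPM with 3 UMIs in all pericyte-like cells. Thsd4, the Wnt ligand gene Wnt5b and Grip2 had mean ratios of 4.95, 4.85 and 4.83.

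**Figure D3:**
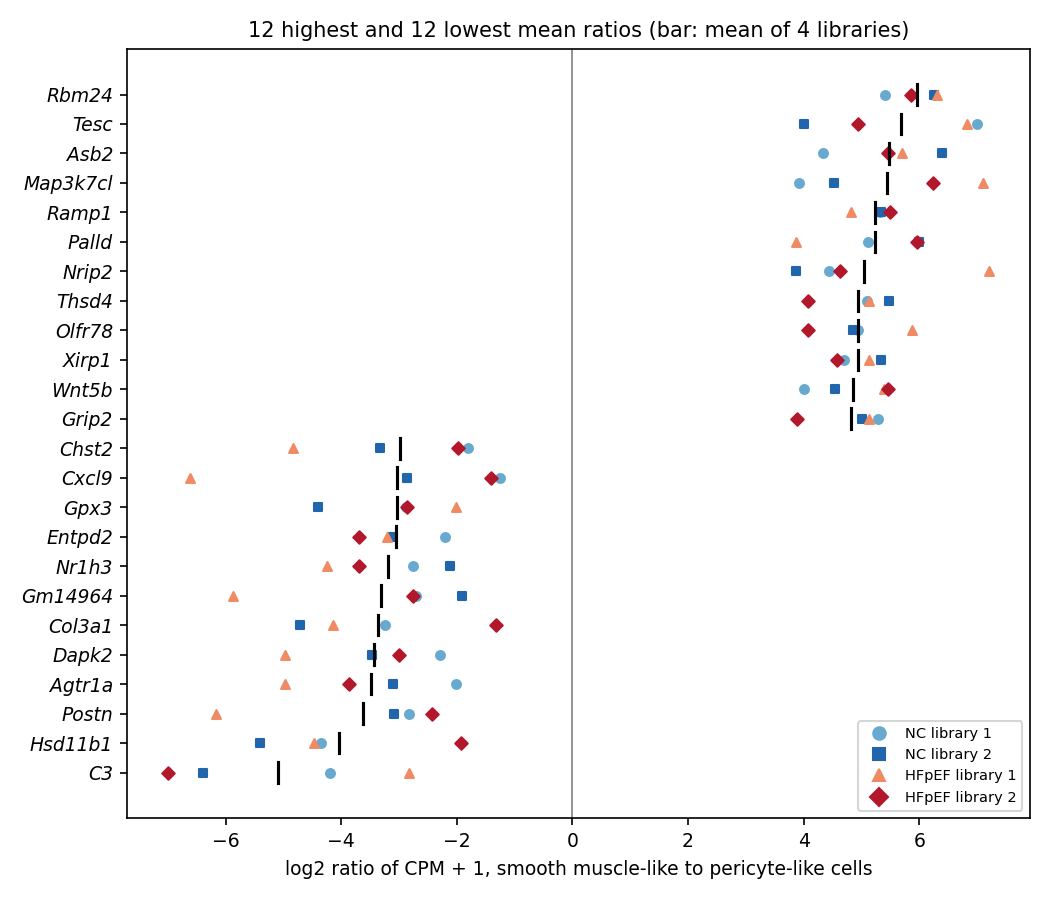
Log2 ratio of CPM + 1 between smooth muscle-like and pericyte-like cells (x axis) for the 12 genes with the highest and the 12 with the lowest mean ratio of those with the same sign in 4 of 4 libraries, with 1 symbol per library and a bar for the mean. Means ran from 5.96 for Rbm24 to -5.10 for C3.

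Among transcriptional and Notch regulators, 1 of 25 was past 2-fold higher, Myocd, which encodes myocardin. It was at 28.4, 41.1, 40.8 and 37 CPM against 1.93, 0, 3.04 and 0 CPM, and the median of the list was 0.20. Notch3, the receptor through which ECs instruct mural cells, was higher in 4 of 4 libraries, at 720.2 ± 82.7 against 496 ± 73.9 CPM. Of the Notch target genes Hey2 was higher in 4 of 4 libraries (mean log2 ratio 1.14 ± 0.22) and Heyl lower in 4 of 4 (-0.62 ± 0.09). Tbx20, a cardiac transcription factor, was lower in 4 of 4, at 29.9 against 77.6 CPM.

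Of calcium handling genes and ion channels, 8 of 24 were past 2-fold higher and 0 lower, with a median log2 ratio of 0.97. Kcnab1, a subunit of voltage-gated potassium channels, was at 59.2, 79.8, 116 and 78.3 against 5.79, 4.25, 3.04 and 1.4 CPM. Atp2a2, the calcium pump of the sarcoplasmic reticulum, was at 399 ± 54 against 128 ± 20.6 CPM. Its inhibitor Pln had a wide spread between libraries (mean log2 ratio 2.33 ± 1.75). The calcium channel subunits Cacna1h and Cacnb2 were also past 2-fold, with Cacna1h at 30.5 against 4.16 CPM. Cacna1c, the pore of the L-type channel, was at 52.8 against 17.7 CPM without passing 2-fold in every library, as was Casq2, a calcium store protein, at 304 against 123 CPM.

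Vasoactive receptors and cyclic nucleotide genes split between the cells, with 2 of 32 past 2-fold higher (Ramp1 and Rgs7bp), 3 lower and a median of 0.00. The lower ones were Agtr1a, an angiotensin II receptor, at 8.28, 2.47, 0 and 1.76 against 36.7, 28.7, 30.4 and 39.2 CPM, the endothelin receptor Ednrb at 40.1 against 128 CPM, and P2ry14, a receptor for UDP-sugars. Ednra, the endothelin receptor of smooth muscle, had overlapping spreads, at 78.3 ± 18.7 and 85.8 ± 25.4 CPM. Gucy1a1, a subunit of the nitric oxide receptor, was higher in 4 of 4 libraries, at 591 ± 101 against 339 ± 56.7 CPM, and at 2.12 CPM in ECs. Rgs5, which restrains receptor signalling and is used as a pericyte marker, was at 10162, 11392, 9153 and 9807 CPM in smooth muscle-like and 9566, 8979, 7838 and 8219 CPM in pericyte-like cells.

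Of the pericyte genes, 4 of 21 were past 2-fold lower (Colec11, Steap4, P2ry14 and Pla1a), with a median of -0.27. Colec11, a soluble lectin, was at 209, 197, 252 and 113 against 876, 944, 1046 and 700.2 CPM. The genes that chose the pericyte-like cells were found in smooth muscle-like cells too, with Kcnj8 at 56.8, 84.7, 44.3 and 32.6 CPM, Abcc9 at 143, 166, 98.7 and 91.5 CPM, and Pdgfrb, the receptor for platelet-derived growth factor, at 344 ± 87 CPM. Of the smooth muscle-like cells, 318 of 656 (48.5%) had 3 or more UMIs of Kcnj8, Abcc9, Vtn and Pdgfrb, by library 66.1%, 71.2%, 29% and 34.7%. That share was high in both NC libraries, which were also the deeper ones, so diet and depth cannot be told apart in it.

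Of matrix genes, 2 of 46 were past 2-fold higher (Col18a1 and Fbln5) and 6 lower (Col3a1, Postn, Col6a2, Col6a1, Col1a1 and Lamb1), with a median of -0.10. Fbln5, which guides elastic fibre assembly, was at 395 ± 44.6 against 139 ± 29.7 CPM. It moved with endothelial RNA, at 433, 508, 483 and 403 CPM in smooth muscle-like cells with 2 or more UMIs of the endothelial genes Pecam1 and Cdh5 and at 66.3, 17.2, 240.3 and 87.1 CPM in those with none. Elastin, Eln, was at 95.8, 54.3, 44.3 and 47.5 against 19.3, 35, 21.3 and 7 CPM. Postn (periostin) was at 17.7, 14.8, 3.4 and 27.3 against 131, 134, 316 and 151 CPM. Fibroblast markers were also higher in pericyte-like cells, but the list of 10 holds Col1a1, Col3a1 and Postn themselves, so it is no separate measure. All 10 were detected there and summed to 939 ± 373 CPM, with Dcn the most abundant. In smooth muscle-like cells 9 were detected and summed to 215 ± 31.6 CPM. Lum was at 0 in these, and the rule limited Dcn, Lum and Pdgfra. With pericyte-like cells held to the same limit, 222 genes were past 2-fold, 206 of them among the 223 and 17 of the 223 lost. Of the matrix genes named here Col1a1 missed 2-fold in at least 1 library, with a mean log2 ratio that went from -1.99 to -1.54. That of Postn went from -3.63 to -3.67, of Col3a1 from -3.36 to -3.03 and of Lamb1 from -2.36 to -2.22. Col6a1 went from -1.93 to -1.89 and Col6a2 from -1.84 to -1.79. Complement C3 had 0 UMIs in smooth muscle-like cells against 179 in pericyte-like cells, at least 83.2-fold lower. The pericyte-like UMIs were unevenly spread, with 9, 78, 2 and 90 by library, and the bound was 39-fold without HFpEF library 2 and 49.1-fold without NC library 2. The other low genes were Hsd11b1, Dapk2, Gm14964, Nr1h3 (a liver X receptor), Entpd2, Gpx3, Cxcl9 and Chst2, with mean log2 ratios from -4.04 to -2.98.

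Other lists held few such genes. Of immediate early genes 1 of 25 was past 2-fold higher, the nuclear receptor Nr4a2, at 344, 487, 320.0 and 396 against 77.2, 75.4, 57.8 and 127 CPM, while Junb and Fos were high in both (5002 against 4798 and 4545 against 3806 CPM). Of 14 chaperones, Cryab, a small heat shock protein of muscle, was past 2-fold higher, at 181 ± 8.74 against 30.6 ± 9.81 CPM. Interferon genes had a median of -0.41, with 13 of 23 lower in 4 of 4 libraries (56.5%, against 17.6% of all genes considered) and Ifitm1 past 2-fold. Of 22 inflammatory mediators Cxcl9 was past 2-fold lower, and of 22 metabolic genes Lpl and Angptl4, the lipoprotein lipase and its inhibitor. These 3 were highest in ECs, at 135, 1300.2 and 106 CPM, and the summed endothelial markers were likewise higher in pericyte-like than in smooth muscle-like cells, as given below. With cells of 2 or more Pecam1 and Cdh5 UMIs left out, the mean log2 ratio of Angptl4 went from -1.58 to -3.20. Those of Cxcl9 and Lpl went from -3.04 to -1.04 and from -1.39 to -0.81. The part of endothelial RNA in these differences was not tested. Oxidative phosphorylation, the clock and the endothelial nitric oxide pathway held 0 of 20, 10 and 5 in either direction, with medians of 0.12, -0.09 and 0.19.

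Markers of the other cell types in the heart were read as whole lists. All 14 endothelial markers were detected and summed to 17958, 16622, 16270.5 and 18082 CPM in smooth muscle-like cells, against 24181 ± 2849 CPM in pericyte-like cells and 41371 ± 4189.7 CPM in ECs, with Fabp4 the most abundant. Pecam1 was at 464, 419, 429 and 438 CPM against 751, 775, 768 and 839 CPM in ECs. Per cell, the 14 markers took a median of 1.61%, 1.4%, 1.46% and 1.53% of UMIs, against 4.01%, 4.76%, 3.86% and 4.04% in ECs. The ranges overlapped: 28.7%, 20.2%, 31.2% and 29.8% of smooth muscle-like cells lay at or above the 5th percentile of ECs. The other lists were low: 9 leukocyte markers summed to 22.1 ± 6.51 CPM (6 detected, Cd68 the highest, Cd79b, Ms4a1 and C1qa at 0), 9 cardiomyocyte markers to 69.2 ± 39.2 CPM (8 detected, Tnnt2 the highest, Nppa at 0) and 6 Schwann and epicardial markers to 104 ± 28.1 CPM (2 detected, Wt1 the highest, with Kcna1, Msln and Upk3b at 0). Wt1 was at 105 CPM in ECs as well. The platelet genes Pf4 and Ppbp summed to 0, 65, 0 and 0 CPM.

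Of the 656 cells, 422 (64.3%) had 2 or more UMIs of Pecam1 and Cdh5 together, by library 75.7%, 67.5%, 62.4% and 58.6%, and 173 (26.4%) had none. The former were deeper, with a median of 8054, 9420.5, 3394 and 4189 UMIs against 3400, 4684, 1794 and 1687 in the latter. Myl9 and Lmod1 were higher in the cells with none. Myl9 was at 2899.7, 2459.6, 2259 and 3299 CPM there, against 1185, 1089, 904 and 945 CPM in those with 2 or more. Lmod1 was at 497, 526, 649 and 569 against 194, 189, 215 and 184 CPM in the same order. Fabp4 stood at 4954, 4038, 6416 and 5179 CPM in the cells with none. Whether barcodes with transcripts of both kinds held more than 1 cell, or free RNA, was not tested. Without the cells with 2 or more, 336 genes were past 2-fold between smooth muscle-like and pericyte-like cells. Of the 223 genes above 156 were still among them and 67 were lost, with Fbln5, Col18a1, Col6a2, Cxcl9, Lpl, Ednrb, Atp2a3 and Trpv4 from the lists, which missed 2-fold in at least 1 library. Their mean log2 ratios went from 1.52 to 0.70 for Fbln5, 2.03 to 0.74 for Trpv4, -3.04 to -1.04 for Cxcl9, -1.39 to -0.81 for Lpl and 1.72 to 1.35 for Atp2a3. Those of the other 3 stayed about as large or grew, from -1.84 to -1.74 for Col6a2, 2.11 to 2.49 for Col18a1 and -1.69 to -3.19 for Ednrb. Without the smooth muscle-like cells with 3 or more pericyte UMIs, 226 genes were past 2-fold, 151 of them among the 223. The listed genes that missed 2-fold in at least 1 library there were Angptl4, Atp2a2, Cacnb2, Dstn, Filip1l, Lpl, Nexn, Pdlim3, Pln and Rgs7bp. Most of their mean log2 ratios moved little, such as 1.57 to 1.67 for Dstn and 1.63 to 1.45 for Atp2a2, and the widest move was 2.73 to 1.80 for Cacnb2.

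Arterial endothelial genes were higher in smooth muscle-like cells than in ECs as a whole. Gja5, the arterial connexin, was at 84, 91.3, 64.7 and 55.4 CPM, against 12.7, 15, 7.76 and 11 CPM in ECs and 54.1, 18, 9.12 and 9.8 CPM in pericyte-like cells. Sema3g was at 396, 348, 266 and 220.0 CPM against 104, 97.5, 77.6 and 81.8 CPM in ECs. The 7 arterial markers summed to 1884, 1891, 1549 and 1323 CPM, against 850.0 ± 165 CPM in pericyte-like cells and 473 ± 55.4 CPM in ECs, with Fbln5 the most abundant here. Gja4, another arterial connexin of the list, stayed in cells without a Pecam1 or Cdh5 UMI, at 464, 263, 360.5 and 384 CPM in smooth muscle-like and 871, 688, 532 and 481 CPM in pericyte-like cells. In the cells without a Pecam1 or Cdh5 UMI, Gja5 was at 0, 5.72, 48.1 and 0 CPM, and in those with 2 or more at 97, 107, 76.1 and 69.3 CPM. The capillary gene Car4, chosen after its values were seen, was lower in smooth muscle-like cells in 4 of 4 libraries, at 37.9, 20.6, 13.6 and 35.2 CPM against 112, 141, 125 and 169 CPM in pericyte-like cells and 431, 413, 305 and 336 CPM in ECs.

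Levels were also read along the marker sum of the cell. Myl9 was at 244, 123, 144 and 153 CPM in cells with a sum of 2, outside the rule, at 478, 361, 498 and 476 CPM with a sum of 4 to 7, and at 2309, 2475, 2289 and 2671 CPM with 64 or more. Tpm2 was at 344, 531, 446 and 391 CPM with a sum of 4 to 7 and at 2494, 2667, 2077 and 2380.3 CPM with 64 or more. The 14 endothelial markers went from 23523, 19598, 20634 and 27674 CPM with 4 to 7 to 12168, 11484, 8308 and 9855 CPM with 64 or more. In NC library 2 they were highest between these, at 24054 CPM with 8 to 15. Rgs5 had no common order, at 9259, 12359, 8686 and 8644 CPM and 8449, 11147, 5679.9 and 9545 CPM. Cells with 64 or more numbered 30, 49, 4 and 29, so HFpEF library 1 rests on 4 cells there, and their median depth was 9246, 8426, 4519 and 6295 UMIs against 6229, 4914, 2164 and 2184 at 4 to 7.

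**Figure D4:**
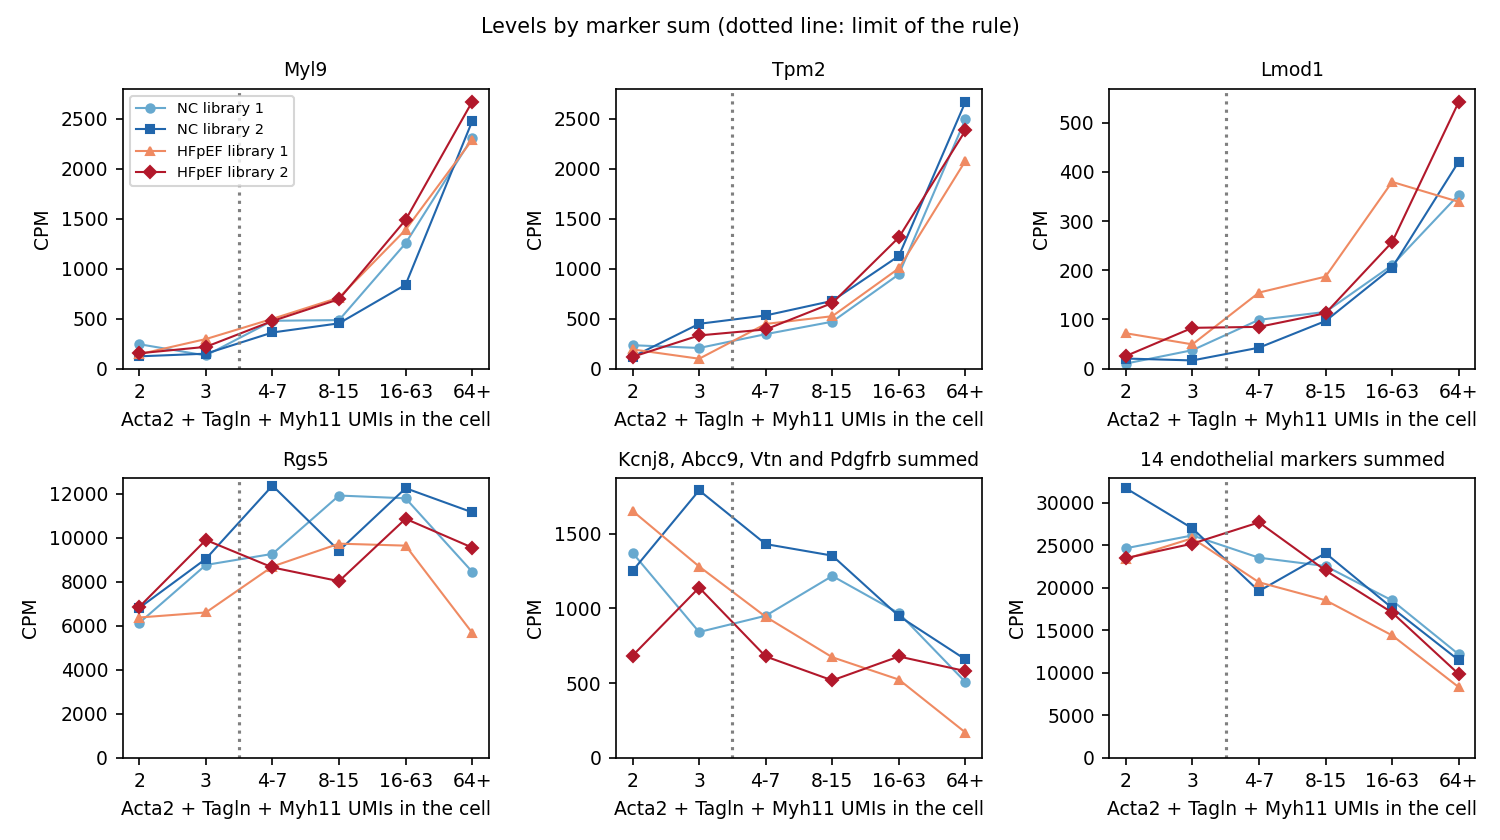
Levels (CPM) of Myl9, Tpm2, Lmod1, Rgs5, 4 pericyte genes summed and 14 endothelial markers summed, by the Acta2, Tagln and Myh11 UMIs of the cell (x axis, classes of sums), with 1 line per library and a dotted line at the limit of the rule. Myl9 and Tpm2 were above 2000 CPM at sums of 64 or more in every library, where the endothelial sum was lowest.

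For HFpEF against NC, sums of UMIs per library were compared by the quasi-likelihood test of edgeR on 8652 genes. Only 5 genes passed a Benjamini-Hochberg adjusted p of 0.05 (0.0578%), all higher in HFpEF: the stress-induced chaperones Hspa1a, Hspa1b and Hsph1, the nucleosome-binding protein gene Hmgn2 and the MHC class I gene H2-Q6. At an unadjusted p under 0.05 there were 721 genes, 413 higher (4.77%) and 308 lower (3.56%). With the library number as a replicate block only Hsph1 passed (edgeR adjusted p = 0.0257). The edgeR adjusted p was then 0.0676 for Hmgn2, 0.146 for Hspa1a, 0.146 for H2-Q6 and 0.207 for Hspa1b. Their log2 fold changes under the block were 1.97, 1.42, 1.28 and 1.74 in that order. The labels do not say that the libraries came from separate mice, so these p-values measure the spread between libraries, which may be technical or, as said above, of genotype.

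Hspa1a (chromosome 17, 34969190 to 34972156) was at 3138, 1845, 5096 and 7734 CPM and rose by 1.40 on the log2 scale (SE 0.21, edgeR adjusted p = 0.0071). Hspa1b (chromosome 17, 34956436 to 34959238) was at 2230.1, 1098, 3727 and 6933 CPM and rose by 1.71 (SE 0.26, edgeR adjusted p = 0.0071). These neighbours are near-identical copies, so the division of reads between them is uncertain. Hsph1 (chromosome 5, 149614287 to 149636376), which recharges HSP70 chaperones, was at 119, 70.7, 299.5 and 236 CPM and rose by 1.51 (SE 0.23, edgeR adjusted p = 0.0071). For each of them the diets did not overlap.

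The other cells of these libraries were also higher in HFpEF. Hsph1 was at 65.6, 54.1, 249 and 269 CPM in pericyte-like cells (log2 fold change 2.18, edgeR adjusted p = 2.98e-06) and at 66.4, 29.9, 158 and 222 CPM in ECs, which were not tested. Hspa1a was at 3253, 2069, 5351 and 6722 CPM in pericyte-like cells (1.22, edgeR adjusted p = 0.00247) and at 2769, 1683, 5621 and 6556 CPM in ECs. Of 14 chaperones tested in smooth muscle-like cells 3 were called and 14 had an estimate above 0, 11 with an unadjusted p under 0.05, and their median was 0.67 against -0.01 over all genes. The labels name no batch, and a part of library handling in this difference was not tested.

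Hmgn2 (chromosome 4, 133964738 to 133968650) was at 16.6, 20.6, 78.3 and 71.3 CPM, from 14, 25, 23 and 81 UMIs, and rose by 1.98 (SE 0.29, edgeR adjusted p = 0.0071). It was at 25.1, 31.8, 51.7 and 35 CPM in pericyte-like cells and 20.5, 26.1, 39.4 and 36.5 CPM in ECs. Hmgn2 has many processed copies in the genome, so its counts are uncertain. H2-Q6 (chromosome 17, 35424850 to 35430055), of a family of near-identical genes, was at 60.3, 60.9, 153 and 139.9 CPM and rose by 1.28 (SE 0.21, edgeR adjusted p = 0.0177). Its level was 130.5, 185, 310.0 and 284 CPM in ECs.

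**Figure D5:**
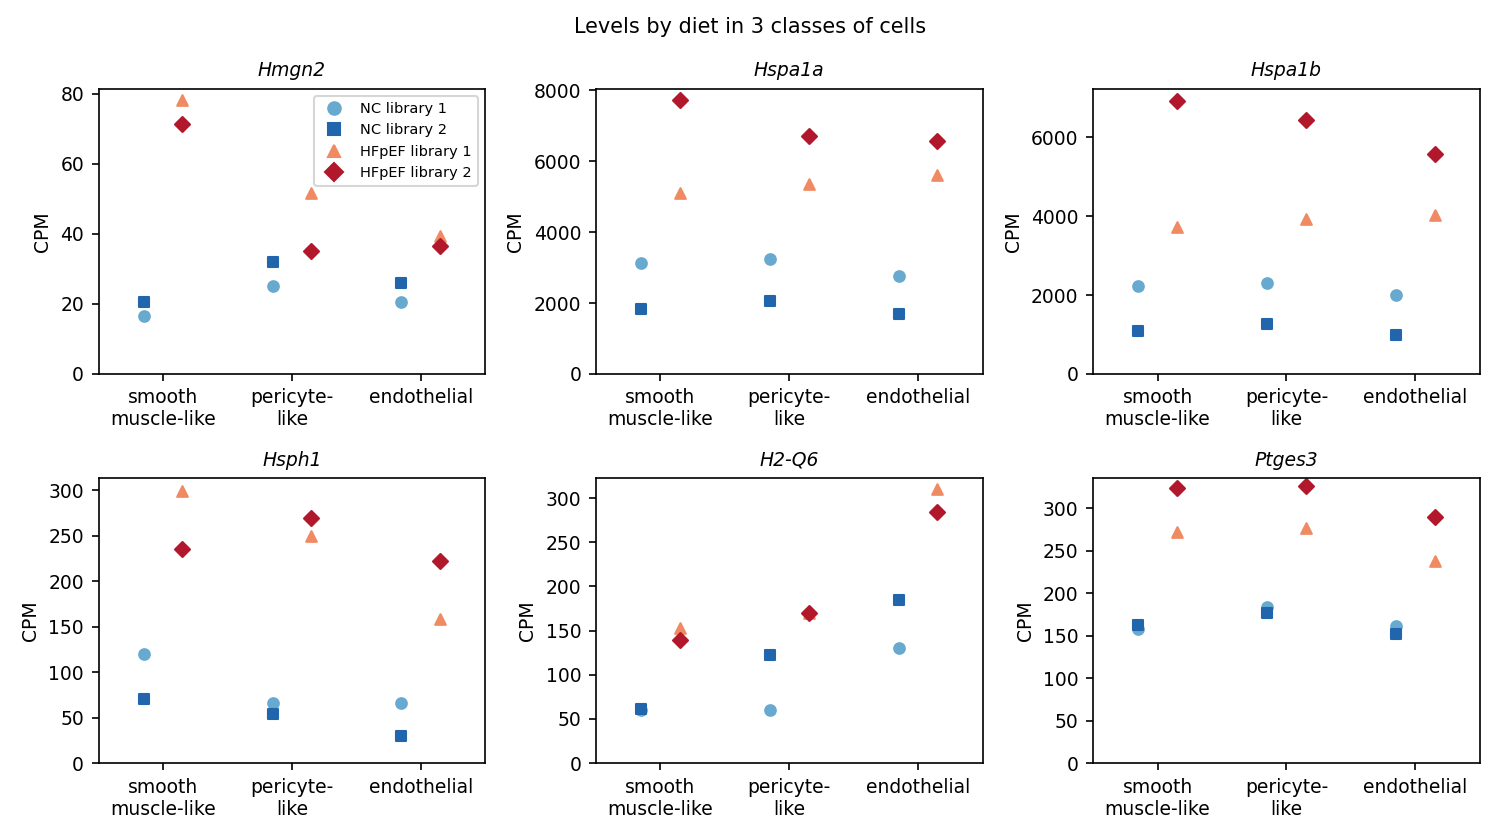
Levels (CPM) in each library of the 5 genes called for diet in smooth muscle-like cells, and of Ptges3, which did not pass, in smooth muscle-like, pericyte-like and endothelial cells. Hspa1a and Hsph1 were higher in both HFpEF libraries than in both NC libraries in all 3 kinds of cell.

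Next came 10 genes that did not pass, picked as those with the smallest p among genes whose diets did not overlap, all with higher estimates in HFpEF. Ptges3, a co-chaperone, was at 157, 162, 272 and 323 CPM (log2 fold change 0.94, edgeR adjusted p = 0.051). Angptl4, an inhibitor of lipoprotein lipase, was at 17.7, 15.6, 54.5 and 48.4 CPM (1.61, edgeR adjusted p = 0.0555). The others included Hspd1, Cxcl2, H2-Q4, Ifit3b, Gbp4, Hspe1 and Dnaja4, with adjusted p from 0.0555 to 0.0729.

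By list, the chaperones apart, 0 genes were called. Of all 8652 genes, 4241 (49%) had an estimate above 0, and 4.77% had an unadjusted p under 0.05 upwards and 3.56% downwards. Of 23 interferon genes 21 had an estimate above 0 and 13 an unadjusted p under 0.05 in that direction (median 0.45), among them B2m, the light chain of MHC class I, at 1065, 915, 1460.3 and 1732 CPM (0.72, edgeR adjusted p = 0.0729). Of 36 contractile genes 16 were above 0 (median -0.02), with Myl9 at -0.04 (SE 0.15, edgeR adjusted p = 0.969). Of 24 pericyte genes 3 were above 0 (median -0.30) and 8 had an unadjusted p under 0.05 downwards, with Kcnj8 at -0.99 and Abcc9 at -0.70 (edgeR adjusted p = 0.269 for both). The share of cells with 3 or more pericyte UMIs and the depth split the same libraries, as given above, and their part was not tested. Medians of the remaining lists were -0.07 for calcium handling and channels, -0.06 for vasoactive receptors, 0.03 for regulators, 0.06 for matrix, 0.12 for immediate early genes, 0.15 for inflammatory mediators, -0.08 for metabolism, -0.13 for oxidative phosphorylation, 0.14 for the clock and 0.11 for the nitric oxide pathway, all log2 fold changes.

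The number of calls moved with single libraries. Each fit without a library left 1 diet with a lone library, which was assumed to vary like the other diet. In edgeR the number was 0 without NC library 1 (403 at an unadjusted p under 0.05), 71 without NC library 2, 7 without HFpEF library 1 and 1 without HFpEF library 2, and DESeq2 called 1, Hsph1 (DESeq2 adjusted p = 0.00965). The DESeq2 adjusted p was 0.115 for Hmgn2, 0.233 for H2-Q6 and 1 for Hspa1a and Hspa1b. In pericyte-like cells 22 of 7349 genes (0.299%) were called, 19 of them higher, among them Hspa1b (1.59) and the chemokine gene Cxcl10. The difference in diet effect between the 2 kinds of cell was tested as an interaction over 8 sums, and 10 of 8737 genes (0.114%) passed in edgeR. None of the 5 genes called in smooth muscle-like cells was among them: the interaction was 0.19 for Hspa1a and -0.63 for Hsph1 (edgeR adjusted p = 1 for both) and 1.49 for Hmgn2 (SE 0.45, edgeR adjusted p = 0.472).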

How the data were processed

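The deposited values are UMI counts for each gene in each cell, not scaled to library size. Per the labels and the study's methods, the authors cleaned reads with fastp, aligned them to mm10 with an Ensembl annotation in Cell Ranger 5.0.1, and downsampled reads between samples. The libraries held 30387717, 31517933, 11163876 and 48003732 UMIs in 7465, 6924, 5769 and 21685 cells. Here the authors' filter on genes and mitochondrial UMIs was applied again, cells were selected by marker UMIs, and UMIs were summed per library and kind of cell. The members and gene lists were chosen with earlier results of these data known.

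Diet was tested with edgeR 4.0.16 in R 4.3.3 (quasi-likelihood, TMM, filterByExpr, Benjamini-Hochberg, diet as the only term), and the diet by class term over 8 sums with library as a term. Each SE given with edgeR was worked back from the test, as the absolute log2 fold change over the square root of its F statistic. DESeq2 1.42.0 was an alternative. Tables and figures were made in Python 3.11.15 (matplotlib 3.10.9, pandas 2.3.3, scipy 1.17.1, numpy 2.4.6). The fits were tested on simulated data. ECs, for levels only, had at least 2 UMIs of Pecam1 and Cdh5, at most 2 each of the smooth muscle and pericyte sums and at most 1 fibroblast UMI. B cells had at least 3 UMIs of Cd79a, Cd79b and Ms4a1 and 0 of Pecam1 and Cdh5. Named genes were the rule genes, listed genes by role, the 12 highest and 12 lowest mean ratios, the called genes of at least 10 CPM, and, as fewer than 10 were called, the 10 with the smallest p whose diets did not overlap. Of 31253 gene identifiers, 31107 (99.5%) matched the GENCODE annotation of GRCm38, which gave gene positions. Some genes that met these rules or stood in these lists are not reported here. The fold bounds without single libraries, and the 2-fold status of listed genes with cells left out, were added after seeing the data.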

Additional observations from a re-analysis of the deposited data

Results flagged for a closer look

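The diet effect differed between smooth muscle-like and pericyte-like cells for 10 genes in edgeR's interaction test, given here as the effect in smooth muscle-like minus that in pericyte-like cells. Mt1, a metallothionein, differed by -0.745 on the log2 scale (edgeR adjusted p = 0.0352), with 979.6, 1004, 609 and 641 CPM in smooth muscle-like and 569.5, 599.7, 727 and 556 CPM in pericyte-like cells. Apold1, an endothelial early response gene, differed by -0.817 (adjusted p = 0.0491), Gm12840 by -1.55 (adjusted p = 4.95e-04) and Gprc5a by -2.88 (adjusted p = 0.0481). Each gene named here and in the next paragraph failed to pass without NC library 1, and Gprc5a was at -1.81 (edgeR adjusted p = 0.935) without HFpEF library 2. Without smooth muscle-like cells with 3 or more pericyte marker UMIs 2 of the 10 genes passed, S100a4 and Apold1, while Gm12840 was at -0.433, Mt1 at -0.121, Cd74 at -0.903, H2-Aa at -1.82 and Col3a1 at 0.712. Without cells with 2 or more Pecam1 and Cdh5 UMIs 0 of the 10 passed in edgeR (S100a4, H2-Aa and Gprc5a had too few UMIs to be tested), with Gm12840 at -1.01, Cd74 at -1.82 and Gsn at 1.75.

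Immune genes were S100a4 at -4.09 (edgeR adjusted p = 2.56e-05) and the MHC class II genes Cd74 at -2.06 (adjusted p = 0.0125) and H2-Aa at -3.04 (adjusted p = 0.0336). Without NC library 2 they were at -7.93, -8.01 and -7.48, and without HFpEF library 1 at -2.94 (edgeR adjusted p = 0.0137), -1.95 (adjusted p = 0.0215) and -2.39 (adjusted p = 0.498). The 9 leukocyte markers summed to 29, 35, 559 and 25.2 CPM in pericyte-like cells, with Lyz2 the most abundant and Ms4a1 and Cd3e at 0, so HFpEF library 1 stood apart, and their part in these differences was not tested. Fibroblast-expressed genes were Gsn at 1.14 (adjusted p = 0.0125) and Col3a1 at 2.44 (adjusted p = 0.0309). Col3a1 was at 0.0872 without HFpEF library 2 and 1.38 without NC library 2 (edgeR adjusted p = 1 for both), and Gsn at 2 without HFpEF library 2 and 0.771 without HFpEF library 1 (edgeR adjusted p = 0.361). The fibroblast markers, Col3a1 among them, summed to 892, 1479.5, 714 and 669 CPM in pericyte-like cells. With fibroblast-positive cells left out of the pericyte-like cells, 2 of the 10 genes passed and Gsn turned to -0.0349.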

How the results depend on the processing

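Calls for diet in smooth muscle-like cells numbered 5. They became 1 with DESeq2, 72 with no low-count filter, 15 with a marker sum of 8 or more, 1 without cells with 2 or more Pecam1 and Cdh5 UMIs, 0 (305 at an unadjusted p under 0.05 in edgeR) without cells with 3 or more pericyte marker UMIs, 2 with cells thinned to 1000 UMIs, and 0 to 71 when libraries were left out in turn, which leaves 1 diet with a lone library. The 5 genes kept their direction in every alternative that tested them, with log2 fold changes of 1.82 to 2.16 for Hmgn2, 1.06 to 1.83 for Hspa1a, 1.22 to 2.31 for Hspa1b, 0.795 to 1.91 for Hsph1 and 1.13 to 1.6 for H2-Q6. In pericyte-like cells 22 calls became 3 with DESeq2, 81 with no low-count filter, 11 without cells with endothelial UMIs, 6 after thinning, and 8 to 90 when libraries were left out. The 10 interaction calls became 5 with DESeq2 size factors, 18 with no low-count filter, 0 in DESeq2 (18 unadjusted), 1 (none of the 10) without cells with endothelial UMIs, 7 (2 of the 10) without cells with 3 or more pericyte marker UMIs, 0 in edgeR after thinning (129 unadjusted), 2 with pericyte-like cells without fibroblast genes, an alternative chosen after seeing the data, and 1 to 20 when libraries were left out. Under that added alternative the interaction of Gsn turned to -0.0349. The 223 genes past 2-fold became 145 with a prior of 10 CPM, 133 with a mean of 50 CPM or more, 371 with no filter, 336 without cells with endothelial UMIs, and 260 to 276 when libraries were left out. The share difference of -0.48 percentage points became 0.102 after thinning and ranged from -0.891 to -0.0696 when libraries were left out. The cause of these changes was not tested.

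With the library number as a replicate block, 1 gene was called in smooth muscle-like (Hsph1, edgeR adjusted p = 0.0257) and 61 in pericyte-like cells. The adjusted p was 0.0676 for Hmgn2, 0.146 for Hspa1a and H2-Q6, and 0.207 for Hspa1b. Libraries of the same number deviated from their group means with a correlation of 0.0192 and 0.0253 in these cells, and the labels do not say that a number marks a pair.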
